A study of Mus musculus with 21 samples.

Results

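The 10 immediate early genes Fos, Fosb, Jun, Junb, Egr1, Egr2, Nr4a1, Atf3, Ier2 and Dusp1, were followed by symbol through sorted hematopoietic stem cells (HSC) and mammary tumours of mice. All 10 were present in each of the 4 deposited tables, which together list 20392 gene symbols. All animals were MMTV-PyMT mice, in which the mouse mammary tumour virus promoter drives the polyoma middle T oncogene in mammary epithelium, so the mice that gave HSC carried this transgene too. HSC of 3 groups were sequenced: sedentary mice at week 12, physically active mice at week 12, and sedentary mice that had received cells from a physically active mouse, sampled at week 14 (called transplant HSC here). Mammary tumours of 4 groups came from sedentary and active mice at week 12 and at week 18. Each of the 7 groups held 3 libraries labelled as biological replicates. The gate of the HSC sort and the preparation of the transplant recipients are not given in the sources used here, and no control carried a transplant from a sedentary donor, so transplantation, its later sampling and donor activity cannot be told apart.

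Immediate early genes are transcribed within minutes of a stimulus, without new protein synthesis, when kinase cascades act on factors already bound at their promoters. Fos, Fosb, Jun and Junb encode subunits of the AP-1 transcription factor, Egr1 and Egr2 encode zinc finger factors, Nr4a1 encodes an orphan nuclear receptor, and Atf3 encodes a stress-induced factor of the ATF/CREB family. Ier2 encodes a nuclear protein, and Dusp1 encodes a phosphatase that switches off MAP kinases. The same transcripts are known to be induced when tissue is dissociated or cells are stained and sorted, and HSC RNA was taken from freshly sorted cells whereas tumour RNA was extracted with TRIzol. Handling times are not given in the sources used here.

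Promoters of 5 genes are shown. Fos, Egr2, Atf3 and Dusp1 are shown because they hold the same 6-base core, TGACGT, and Nr4a1 as an example of a member with the half-site alone, as Fosb and Junb also have. Sequences are RefSeq's for GRCm38.p6 (mm10), read 5′ to 3′ on the gene's strand, from 200 bases before the transcription start to the base before it. The Dusp1 stretch stops 51 bases before the start, where another annotated transcript begins. Capitals mark TGACG or its reverse complement CGTCA, the half-site of the cAMP response element, and in Egr2 also a CArG box, the site of serum response factor.
Fos, chr12:85473690-85473889, plus strand: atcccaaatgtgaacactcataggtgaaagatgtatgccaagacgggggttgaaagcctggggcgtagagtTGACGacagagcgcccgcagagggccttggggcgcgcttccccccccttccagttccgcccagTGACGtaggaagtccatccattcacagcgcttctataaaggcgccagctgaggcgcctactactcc
Egr2, chr10:67537669-67537868, plus strand: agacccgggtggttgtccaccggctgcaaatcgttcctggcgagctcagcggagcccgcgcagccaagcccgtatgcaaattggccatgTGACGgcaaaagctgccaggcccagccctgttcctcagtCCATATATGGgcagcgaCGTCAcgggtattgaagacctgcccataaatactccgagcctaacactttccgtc
Atf3, chr1:191183334-191183533, minus strand: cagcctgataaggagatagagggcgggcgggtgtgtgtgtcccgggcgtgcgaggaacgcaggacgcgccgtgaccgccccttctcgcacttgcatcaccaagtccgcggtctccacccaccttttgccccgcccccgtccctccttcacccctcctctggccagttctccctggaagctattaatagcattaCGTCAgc
Nr4a1, chr15:101266646-101266845, plus strand: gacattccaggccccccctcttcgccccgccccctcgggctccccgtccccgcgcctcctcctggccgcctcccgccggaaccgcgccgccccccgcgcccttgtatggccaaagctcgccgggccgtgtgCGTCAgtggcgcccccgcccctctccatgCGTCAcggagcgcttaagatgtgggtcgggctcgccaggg
Dusp1, chr17:26508523-26508672, minus strand: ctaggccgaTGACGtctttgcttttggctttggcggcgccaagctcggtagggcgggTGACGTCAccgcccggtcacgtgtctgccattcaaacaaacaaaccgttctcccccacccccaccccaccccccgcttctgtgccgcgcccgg

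Promoters of 8 of the 10 members were searched, and Egr2 has 5 listed starts, of which 1 is shown. No promoter was listed for Ier2. Egr1 was left out because of its chromosome, so its motifs are not known here, and the windows of all promoters were not restricted in this way. On either strand of the 200 bases, TGACG was found in 7 of the 8 (not in Jun), against 15.7% of 32851 promoter windows. A gene was counted where any of its starts matched, and 3 of the 5 starts of Egr2 did, whereas the share is per window. The core TGACGT, which contains TGACG, was found in Fos, Egr2, Atf3 and Dusp1, against 5.85% of windows. The full palindrome TGACGTCA was found in Dusp1 alone of the 8, against 1.47%, and the CArG box in Egr2 alone of the 8 searched, against 1.18%. The AP-1 site TGANTCA was found in none of the 8, against 5.48%, and the Egr site GCGNGGGCG in Fosb and Nr4a1, against 4.28%. These matches describe letters in a window and say nothing of binding in these samples.

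One HSC library has to be described before the results. The active library numbered 6, replicate 2 of the active group, appears in both HSC tables with different reads at 13086 of the 13380 shared genes, whereas the other 2 shared active libraries differed at 4 genes each. The headers of this library's 2 columns share the number 6 and otherwise differ. Across 10794 genes, its column in the sedentary and active table correlated most with transplant libraries (Pearson r of 0.961 to 0.977, against 0.883 to 0.917 with sedentary libraries). Its column in the active and transplant table correlated most with sedentary libraries (0.985 to 0.990, against 0.927 to 0.950 with transplant libraries). With the other active libraries, the former column correlated at 0.924 to 0.948 and the latter at 0.971 to 0.983. Each comparison below uses the column of its own table, and values with the other column are given beside it. Depth also crossed the groups: replicate 3 of each HSC group held 58500940 to 72417315 reads, and the other HSC libraries 16406889 to 24574563, so values within replicates 1 and 2 are given as well. Tumour libraries held 20838963 to 28973775 reads.

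HSC values below are scaled reads, that is, read counts divided by 1 size factor per library set over all HSC libraries together, so that the 3 groups can be set side by side. All 10 HSC markers, among them Kit, Procr and Mecom, were listed in the HSC tables, and their summed level was 8928 to 11955 scaled reads over the libraries. One by one they differed: for transplant against sedentary HSC 1 was called higher, Slamf1, and 2 lower, Hlf and Mecom, against 11.7% of all genes called, and the median of the 10 log2 fold changes was -0.49. No T cell or adipocyte marker was listed there. Neutrophil markers were abundant, with a summed level of 62059 to 91561 scaled reads in sedentary, 118059 to 364030 in active and 248558 to 316757 in transplant HSC. With the other column, active replicate 2 held 64196. Megakaryocyte markers summed to 2049 to 3766 in sedentary, 4346 to 23196 in active and 8117 to 23058 in transplant HSC, and to 2913 in the other column of active replicate 2. Macrophage and monocyte markers summed to 16267 to 20790, 17411 to 29973 and 21289 to 26108 in the same groups, and to 13564 in that other column. Endothelial markers summed to 4477 to 5784, 4911 to 6439 and 6024 to 8142, and to 5282 in that column.

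Between active and sedentary HSC, no member passed the threshold of an adjusted p under 0.05 in limma's test on log2(value + 1), and neither did any of the 13513 genes tested (0.0%). Fos, Fosb, Jun, Egr1, Egr2, Atf3 and Dusp1 had higher means in active HSC, and Junb and Ier2 were close to level. Of the 10 log2 fold changes 7 were above zero, with a median of 0.81, where the median of all genes was 0.0037. At an unadjusted p under 0.05 there were 3 members, Egr1, Atf3 and Dusp1, all higher in active HSC, against 1252 of all genes (9.27%). DESeq2 on the recovered reads called 257 of 12437 genes (2.07%) and edgeR none, and neither called a member. With the other column of replicate 2 the members' median was 0.39.

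Between transplant and sedentary HSC, Atf3 alone of the 10 members passed the threshold, against 1553 of 13329 genes (11.7%), of which 1058 were higher (7.94%) and 495 lower (3.71%). These groups share no table, so the test used reads recovered from both tables and scaled together. Above zero lay 7 members, with a median log2 fold change of 0.68 and -0.00046 for all genes. An unadjusted p under 0.05 was found for 4 members, against 31.7% of all genes: Atf3, Egr1 and Fos higher and Nr4a1 lower in transplant HSC. On the same reads edgeR called 2566 genes (19.3%), among them Atf3 and Egr1, and DESeq2 3153 of 13105 (24.1%), among them Atf3, Egr1 and Fos. Neither the sedentary nor the transplant libraries include the doubtful library.

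Between transplant and active HSC, no member passed the threshold, against 7 of 13633 genes (0.0513%). Above zero lay 5 members and below it 5, with a median of 0.086. Nr4a1 alone had an unadjusted p under 0.05, against 17.8% of all genes. DESeq2 called 1107 of 12821 genes (8.63%) and edgeR 1 gene (0.00734%), and neither called a member. This comparison shares the active libraries with the first and the transplant libraries with the second.

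**Figure D1:**
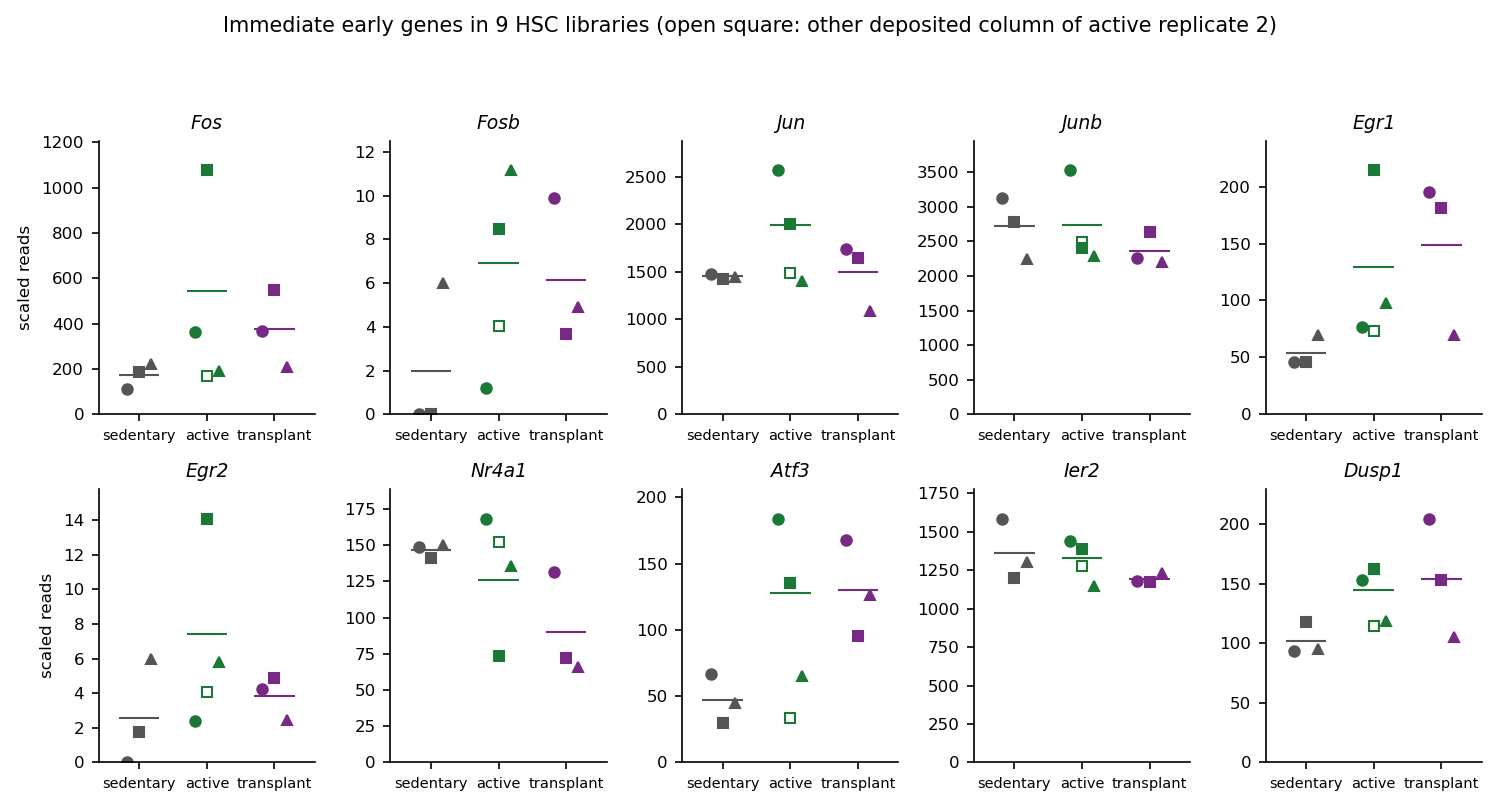
Each panel plots 1 gene, with scaled reads on the vertical axis from 0 and the 3 HSC groups on the horizontal axis. Circles, squares and triangles are replicates 1, 2 and 3, bars are group means, and the open square is the other deposited column of active replicate 2; Fos in that library is 1075 in 1 column and 169.9 in the other.

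Fos, the AP-1 subunit that dimerizes with Jun proteins, varied most among the members with reads in every HSC library. It stood at 112.8, 185.1 and 221.9 scaled reads in sedentary replicates 1 to 3, at 360.8, 1075 and 192.5 in active HSC, and at 367.1, 547.4 and 210.0 in transplant HSC. The 3 replicates 3 lay close together in all groups, and the high values came from replicates 1 and 2 of the active and transplant groups. The log2 fold change was 1.33 (SE 0.66, limma adjusted p = 0.475) for active against sedentary HSC and 1.06 (SE 0.42, adjusted p = 0.151) for transplant against sedentary HSC. Within replicates 1 and 2 it was 2.10 (adjusted p = 0.274) and 1.63 (adjusted p = 0.0603). Active replicate 2 decided much of the first value: the column of the other table gave 169.9 scaled reads and a log2 fold change of 0.45. For transplant against active HSC the value was 0.61 (SE 0.45) and turned to -0.27 with the other column.

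Fosb, a paralog of Fos, was near the limit of detection in HSC. No read was found in sedentary replicates 1 and 2, which allows up to 4.90 and 5.29 scaled reads (3 reads each, counting error only), and sedentary replicate 3 held 6.0. Active HSC held 1.2, 8.5 and 11.2 scaled reads and transplant HSC 9.9, 3.7 and 4.9, or 1 to 27 reads per library. The log2 fold changes of 1.66 (SE 0.98) and 1.80 (SE 0.84) against sedentary HSC had adjusted p-values of 0.490 and 0.202, and the ranges overlapped. Fosb in transplant against sedentary HSC passed without sedentary replicate 3 (2.73, adjusted p = 0.0244) and within replicates 1 and 2 (2.82, adjusted p = 0.0410), and its value over the alternatives ran from 0.97 to 3.86.

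Jun and Junb, the partners of Fos in AP-1, were not apart in any pair of HSC groups. Jun lay at 1426 to 1476 scaled reads in sedentary HSC, at 2564, 1998 and 1400 in active HSC and at 1738, 1647 and 1088 in transplant HSC. The sedentary libraries differed by less than the others, and both other groups spread to either side of them. Jun had a log2 fold change of 0.41 (SE 0.24, adjusted p = 0.487) between active and sedentary HSC. Junb, at 2253 to 3128, 2297 to 3528 and 2200 to 2639 scaled reads in sedentary, active and transplant HSC, overlapped in every pair of groups. Exons of Jun, Junb and Dusp1 share bases with genes on the opposite strand (Junos, Prdx2 and Ergic1 in GENCODE M21), and the strand setting of the count is not given in the sources used here, so reads of these pairs cannot be told apart.

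Egr1, a zinc finger factor that activates growth and stress genes, was lower in sedentary HSC than in every active library. It stood at 45.8, 45.8 and 70.0 scaled reads in sedentary, at 76.5, 214.2 and 97.9 in active and at 194.9, 181.2 and 69.5 in transplant HSC. Active and sedentary HSC did not overlap, as at 10.4% of all genes in that direction, also with the other column (72.8). Transplant replicate 3 fell within the sedentary range. The log2 fold change was 1.13 (SE 0.42, adjusted p = 0.475) for active and 1.34 (SE 0.44, adjusted p = 0.103) for transplant against sedentary HSC. With the other column the active value was 0.62 (SE 0.21). Within replicates 1 and 2, transplant against sedentary HSC gave 2.01 and an adjusted p of 0.0139, and without transplant replicate 3 Egr1 passed as well, at 1.81. For transplant against active HSC the value was 0.71 (SE 0.42), or 0.20 with the other column.

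Egr2, a relative of Egr1 known in myeloid and lymphoid cells, held no more than 14 reads in any HSC library. Sedentary HSC held 0.0, 1.8 and 6.0 scaled reads, where the 0 allows up to 4.90. Active HSC held 2.4, 14.1 and 5.8 scaled reads and transplant HSC 4.2, 4.9 and 2.5. The groups overlapped, and the log2 fold changes of 1.34 (SE 0.83) and 0.82 (SE 0.70) against sedentary HSC had adjusted p-values of 0.499 and 0.466.

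Atf3, a factor induced by many kinds of cell stress, was the one member called in HSC. Its values were 67.0, 30.0 and 44.5 scaled reads in sedentary, 184.0, 135.3 and 64.9 in active and 168.0, 95.5 and 126.3 in transplant HSC. Every transplant library lay above every sedentary library, as at 20.3% of all genes in that direction. From a mean of 47.2 ± 18.7 in sedentary to 129.9 ± 36.4 in transplant HSC (SD, n = 3 each), Atf3 rose by a log2 fold change of 1.48 (SE 0.35, limma adjusted p = 0.0495). That call sat at the threshold: each of the 6 fits without 1 library lost it, with adjusted p-values of 0.0642 to 0.133 and log2 fold changes of 1.197 to 1.765. The fit with the replicate number as a block gave 0.0516 and the fit within replicates 1 and 2 gave 0.132. DESeq2 and edgeR on the same reads both called Atf3. For active against sedentary HSC the log2 fold change was 1.37 (SE 0.47, adjusted p = 0.475), and 0.71 with the other column, which held 33.7 scaled reads. For transplant against active HSC it was 0.76 (SE 0.63).

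Nr4a1, whose protein is a target of antigen and growth factor signals and restrains HSC proliferation, went the other way. Sedentary HSC were tightly grouped at 148.8, 141.0 and 149.9 scaled reads, and transplant HSC lay at 131.3, 72.2 and 66.2. All transplant libraries were below all sedentary ones, as at 18.4% of all genes in that direction. The log2 fold change was -0.77 (SE 0.27, adjusted p = 0.122), and without transplant replicate 1 it was -1.07 and passed the threshold. Active HSC held 168.5, 73.3 and 135.9 scaled reads in the table with sedentary HSC, a log2 fold change of -0.30 (SE 0.32) that rested on replicate 2. Without that library it was 0.044, and with its other column (152.3) it was 0.050. Transplant HSC lay below the active libraries of their own table, with a log2 fold change of -0.82 (SE 0.28, adjusted p = 0.243) and no overlap, as at 12.1% of all genes in that direction. With the other column the groups overlapped and the value was -0.47.

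Ier2 lay at 1201 to 1586, 1150 to 1442 and 1172 to 1233 scaled reads in sedentary, active and transplant HSC and overlapped throughout. Dusp1, the feedback phosphatase, held 93.2, 118.1 and 94.95 scaled reads in sedentary, 152.9, 162.1 and 119.0 in active and 204.8, 153.1 and 105.4 in transplant HSC. The lowest active library was within 1 scaled read of the highest sedentary library, and the deposited values of these groups overlapped. Dusp1 had a log2 fold change of 0.49 (SE 0.18, adjusted p = 0.475) for active and 0.55 (SE 0.26, adjusted p = 0.213) for transplant against sedentary HSC. Dusp1 was 0.33 with the other column in the first of these.

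**Figure D2:**
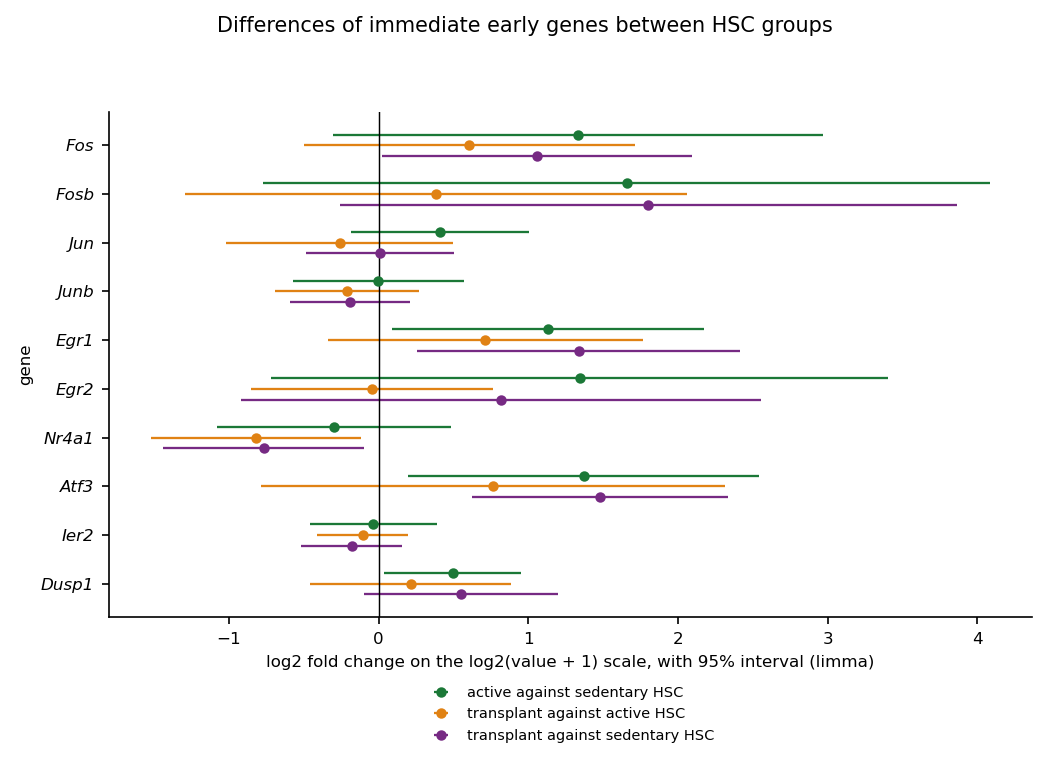
Points are log2 fold changes on the log2(value + 1) scale and lines their 95% intervals from limma, per gene and comparison, with the vertical line at no difference. Atf3 in transplant against sedentary HSC runs from 0.62 to 2.33, and the intervals of Fosb, Jun, Junb, Egr2 and Ier2 cross zero in all 3 comparisons.

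By library, the number of members above their own median over the 9 HSC libraries was 3, 2 and 4 of 10 in sedentary replicates 1 to 3, 7, 8 and 3 in active and 6, 6 and 1 in transplant HSC. Replicate 3, the deepest library, had the fewest high members of its group in active and transplant HSC and the most in sedentary HSC. The share of reads on Rn45s, a ribosomal RNA precursor, was 1.59% in active replicate 3 and 0.0824% to 0.410% in the other HSC libraries. Neutrophil markers were also higher: all 10 lay above zero for transplant against sedentary HSC, 8 of them called, and all 5 megakaryocyte markers were called there too, against 7.94% of all genes called higher. Transplant replicate 3, with 1 of 10 members above their median, had the highest neutrophil sum of its group (316757, against 248558 and 255200 scaled reads). Its megakaryocyte sum was the lowest of the group (8117, against 23058 and 15632). In active HSC, replicate 2 had the most high members and the highest sums of both lists (364030 and 23196, or 64196 and 2913 in its other column). Sedentary replicate 3 likewise led its group in high members and in both sums (91561 and 3766). For active against sedentary HSC the same 10 and 5 markers lay above zero, with none called. The part of these cells in the members' values was not tested, and in bulk RNA more cells of a type and more RNA per cell cannot be told apart.

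In the authors' deposited table for active and sedentary HSC, turned here to active over sedentary, Fos had a log2 fold change of 1.65 with an adjusted p of 0.0882, Atf3 1.44 with 0.117 and Egr1 1.28 with 0.161. No member was past 0.05 in that deposited table of the authors, where 223 of 13513 genes were (1.65%). The authors' deposited table for transplant and active HSC gave Nr4a1 -0.77 with an adjusted p of 0.151, and again no member past 0.05, against 7.92% of its genes.

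The wider group of 40 other immediate early genes was read beside the members, with 38 of them tested in HSC. For transplant against sedentary HSC 9 of the 38 passed, 6 higher and 3 lower, with a list median of 0.46, against 11.7% of all genes called, 7.94% higher and 3.71% lower. Klf4, a zinc finger factor that halts proliferation, rose from 156.5 ± 21.6 to 339.3 ± 44.8 scaled reads (SD over 3 libraries per group), with a log2 fold change of 1.11 (SE 0.16, limma adjusted p = 0.0168). Cebpd, a factor of myeloid differentiation, rose by 0.76 (adjusted p = 0.0203), Rhob, a small GTPase, by 0.99 (0.0246) and Gadd45b, a growth arrest gene, by 0.92 (0.0348), all log2 fold changes. Sik1, a kinase gene induced by cAMP, fell by 0.57 (adjusted p = 0.0338). These 5 genes had no overlap between the groups, as at 20.3% of all genes in the higher and 18.4% in the lower direction. Leaving out sedentary replicate 1 or 2, transplant replicate 1 or transplant replicate 2 left none of the 38 called, as did the replicate block. In that order, those fits called 295, 236, 480 and 255 of all genes (13329 to 13338 tested), and the block 95 of 13329. edgeR and DESeq2 each called 13 of the 38, against 19.3% and 24.1% of all genes.

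In the other comparisons of HSC no gene of this list was called. For active against sedentary HSC the smallest p-values belonged to Dusp2 (-0.76, adjusted p = 0.475) and Fosl2 (0.67, adjusted p = 0.475), and for transplant against active HSC to Sik1 (-0.58, adjusted p = 0.169) and Rhob (0.69, adjusted p = 0.188). For transplant against sedentary HSC, where 11.7% of all genes were called, 2 further lists were read. Among 10 genes of the integrated stress response, in which Atf3 also takes part, Ddit4 alone passed, higher by 1.11 (limma adjusted p = 0.0168). Among 16 regulators of immediate early transcription, 1 was called higher and 1 lower. Mapk3, the kinase ERK1, was higher by 0.84 (limma adjusted p = 0.0158). Elk3, a cofactor of serum response factor, had a log2 fold change of -0.73 (limma adjusted p = 0.0163). Both lists lay near the share of all genes called. Heat shock genes lay mostly below zero: 10 of 13 in each HSC comparison, beside near equal numbers of all genes above and below zero, with medians of -0.37, -0.25 and -0.42 for active against sedentary, transplant against active and transplant against sedentary HSC. None of the 13 passed the limma threshold. In the same order, 1, 3 and 9 had an unadjusted p under 0.05, against 9.27%, 17.8% and 31.7% of all genes. Of these, 0, 2 and 2 were higher and 1, 1 and 7 lower, so the direction was mixed for transplant against active HSC.

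Tumour values are the authors' normalized reads, which were on 1 scale for all 12 tumours. In tumours no member passed the threshold in any of 5 comparisons. At week 12 limma called 99 of 19162 genes between active and sedentary tumours (0.517%), and at week 18 none of 18939 (0.0%). On recovered reads edgeR called 76 (0.397%) and DESeq2 208 (1.1%) at week 12, and 0 (0.0%) and 50 (0.298%) at week 18, with no member among them. At an unadjusted p under 0.05, Egr1 alone of the members was found at week 12, against 4.09% of all genes, and none at week 18, against 5.97%. The members' median log2 fold change for active against sedentary tumours was -0.18 at week 12 and -0.10 at week 18, with 7 of 10 below zero at each week. The medians of all genes were 0.012 and 0.0091.

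**Figure D3:**
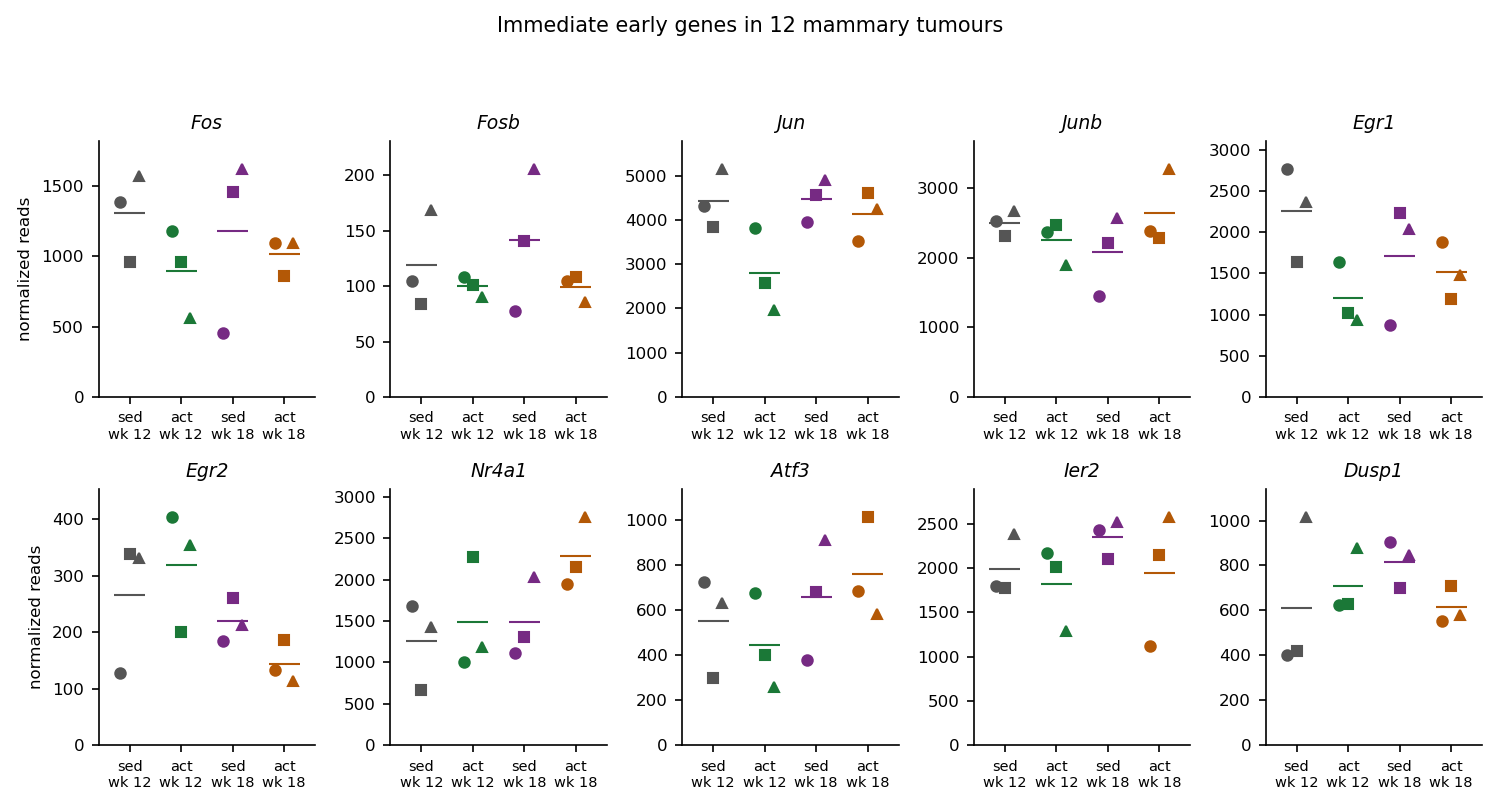
Each panel plots 1 gene in 12 tumours, with normalized reads on the vertical axis from 0 and the 4 groups (sedentary, sed, and active, act, at week 12 and 18) on the horizontal axis. Circles, squares and triangles are replicates 1, 2 and 3 and bars are means; Egr1 and Jun in active tumours of week 12 lie below all sedentary tumours of that week.

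Egr1 and Jun had the largest differences at week 12. Egr1 stood at 2773, 1640 and 2363 normalized reads in sedentary and at 1638, 1017 and 930.0 in active tumours, with 2 normalized reads between the closest libraries. Its log2 fold change was -0.93 (SE 0.32, adjusted p = 0.970). Jun stood at 4311, 3847 and 5163 in sedentary and at 3825, 2581 and 1974 in active tumours, a log2 fold change of -0.71 (SE 0.29, adjusted p = 0.970). In neither gene did the groups overlap, as at 4.78% of all genes in that direction. Fos, at 1388, 960.1 and 1572 against 1179, 960.2 and 557.6 normalized reads, overlapped, with a log2 fold change of -0.58 (SE 0.35).

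Active replicate 3 of week 12 was the lowest of its group in 7 members, all but Egr2, Nr4a1 and Dusp1. That tumour stood apart in its markers: its T cell markers summed to 8377 normalized reads, B cell markers to 14562 and adipocyte markers to 206118, and 3.91% of its reads were mitochondrial, against 1.59% to 2.51% in the other tumours. Without it the log2 fold change of Egr1 was -0.77. Skeletal muscle markers summed to 45569 to 101321 in sedentary and 260 to 1156 in active tumours of week 12. The part of muscle, fat and lymphoid tissue in these values was not tested. Mammary epithelial markers, all 7 listed, summed to 54318 to 132747 over the 12 tumours.

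At week 18 the 3 members with the smallest p-values did not follow those of week 12. Egr2 stood at 184.8, 260.1 and 213.1 normalized reads in sedentary and 132.1, 186.2 and 114.1 in active tumours, and the highest active tumour was level with the lowest sedentary one (log2 fold change -0.62, SE 0.25, adjusted p = 0.824). Nr4a1 stood at 1118, 1306 and 2033 in sedentary and 1953, 2150 and 2762 in active tumours (0.65, SE 0.29, adjusted p = 0.824). Dusp1 stood at 903.8, 700.2 and 847.6 in sedentary and 552.4, 709.9 and 580.3 in active tumours (-0.41, SE 0.19, adjusted p = 0.824). The groups overlapped in all 3 genes. Fos spanned 451.9 to 1624 among sedentary tumours of week 18, a wider range than any other group of tumours showed for that gene.

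**Figure D4:**
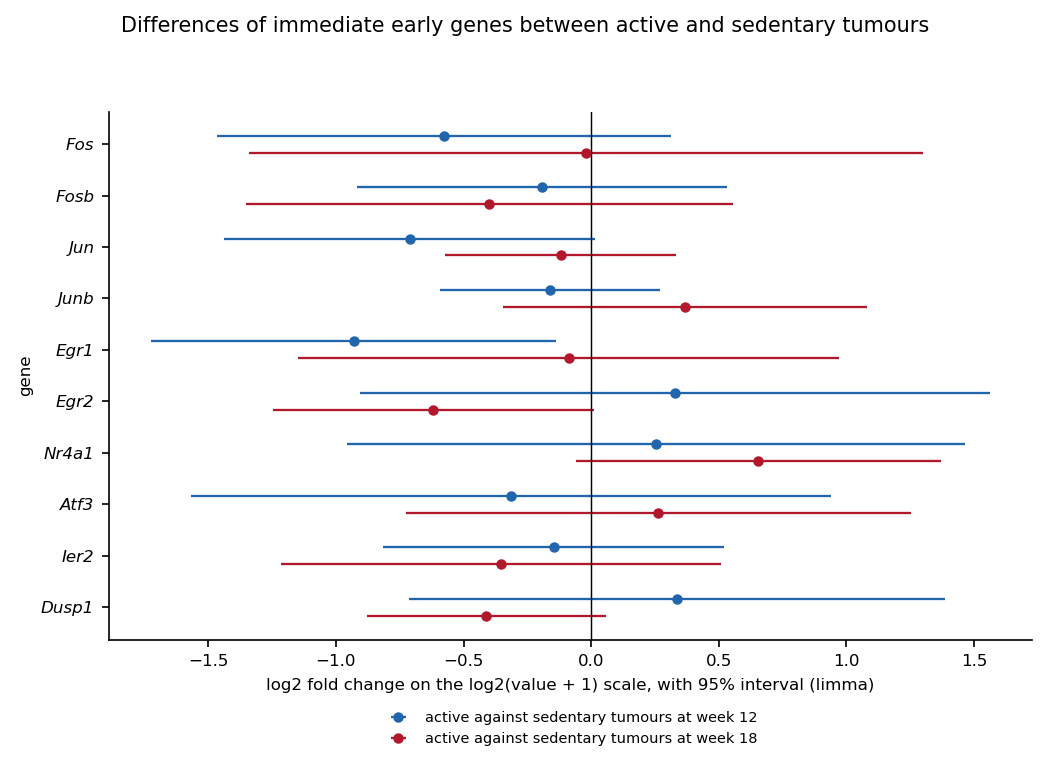
Points are log2 fold changes of active against sedentary tumours on the log2(value + 1) scale and lines their 95% intervals from limma, at week 12 and week 18. Egr1 at week 12 runs from -1.72 to -0.14, and the week 18 intervals of all 10 genes cross zero.

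The difference of the activity effect between the weeks was tested in 1 fit of all 12 tumours, which called 2 of 19241 genes (0.0104%) and no member. None of the 10 had an unadjusted p under 0.05, against 6.33% of all genes. The largest member values were -0.95 for Egr2 (SE 0.58), 0.84 for Egr1 (SE 0.55), -0.75 for Dusp1 (SE 0.47) and 0.59 for Jun (SE 0.34), on the log2 scale, with adjusted p = 0.770 for each. From week 12 to week 18 in sedentary tumours, 1 of 19241 genes was called (0.0052%). No member had an unadjusted p under 0.05 there, against 3.64% of all genes, and the largest value was 0.55 for Dusp1 (SE 0.33). In active tumours 3 genes were called (0.0156%). There Egr2 was lower at week 18 by a log2 fold change of -1.11 (SE 0.41, adjusted p = 0.236) with no overlap, as at 12.7% of all genes in that direction, and Jun was higher by 0.61 (SE 0.24, adjusted p = 0.249) with overlap. Both had an unadjusted p under 0.05, against 17.7% of all genes.

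No gene of the other immediate early list, with 39 tested, was called in tumours. The smallest p-values were those of Ppp1r15a (0.45) and Egr3 (0.86) at week 12, both with an adjusted p of 0.970, and of Per1 (-0.98) and Fosl1 (1.42) at week 18, both with 0.824. In the difference between weeks they were those of Cebpb (1.03) and Per1 (-0.97), each with 0.770. Between weeks they were those of Nfkbiz (-0.41) and Nr4a2 (1.00) in sedentary tumours, each with an adjusted p of 1.0. In active tumours they were those of Jund (0.61, adjusted p = 0.242) and Cebpb (0.92, adjusted p = 0.271). All are log2 fold changes from limma.

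Members varied together more often than not, without doing so throughout. Over the 12 tumours, as deviations from group means, 37 of the 45 pairs of members correlated positively, with a median Pearson r of 0.39. Fos and Egr1 were closest (0.91), followed by Fos and Junb (0.87) and Fos and Fosb (0.81), whereas Egr2 and Nr4a1 ran in opposite directions (-0.65). Sedentary tumour replicate 3 of week 18 had all 10 members above their median over the 12 tumours, and sedentary replicate 1 of that week had 2. Over the 9 HSC libraries, 27 of 45 pairs were positive, with a median of 0.21. There Ier2 and Atf3 (0.88) and Fos and Egr1 (0.79, or 0.63 with the other column of active replicate 2) were close. Fosb, near the limit of detection in HSC, and Junb (-0.90) were opposed. With the other column 31 of 45 pairs were positive, with a median of 0.32, and the highest r of any pair was 0.79. These are descriptions over few libraries, which were scaled together within each tissue and which differed in depth among HSC.

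The genes most like the members were ranked by the Pearson correlation of their log2(value + 1) with the mean standardized level of the 10 members, among genes with a mean of at least 50. Over the 9 HSC libraries they were Wdr91 (0.95), Fzd5 (0.93), Rhbdf2 (0.93), Stx6 (0.92) and Atrnl1 (0.92) among 10800 genes. With the other column of active replicate 2 Wdr91 (0.92) alone of these 5 stayed, beside Abca1 (0.94), Tnfsf9 (0.93), Tfeb (0.92) and Socs3 (0.92). Over the 12 tumours they were Cntn2 (0.87), Chit1 (0.86), 6430562O15Rik (0.85), Myo6 (0.84) and Sowahb (0.84) among 13628 genes. The rankings are given without a test.

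Set against the tumours as RPM, the reads of a gene scaled to its library total, HSC held less of most members. The lowest tumour was above the highest HSC library for 6 members, Fosb, Egr1, Egr2, Nr4a1, Atf3 and Dusp1. The share of all genes that part in this way was not counted, so this cannot be read as a trait of the members. Egr1 had a median of 69.9 RPM in tumours (37.4 to 110.9) and 2.61 in HSC (1.53 to 7.31), and Nr4a1 63.1 (28.6 to 107.0) and 4.60 (2.24 to 5.74). Atf3 had 26.4 in tumours (10.5 to 42.1) and 3.28 in HSC (1.04 to 6.27). Junb was nearest to level, with medians of 99.5 and 81.9 RPM and overlapping ranges, and Fos, Jun and Ier2 overlapped too. Tissue, sorting, RNA extraction and the tables' separate gene sets cannot be told apart here, and the difference was not tested.

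**Figure D5:**
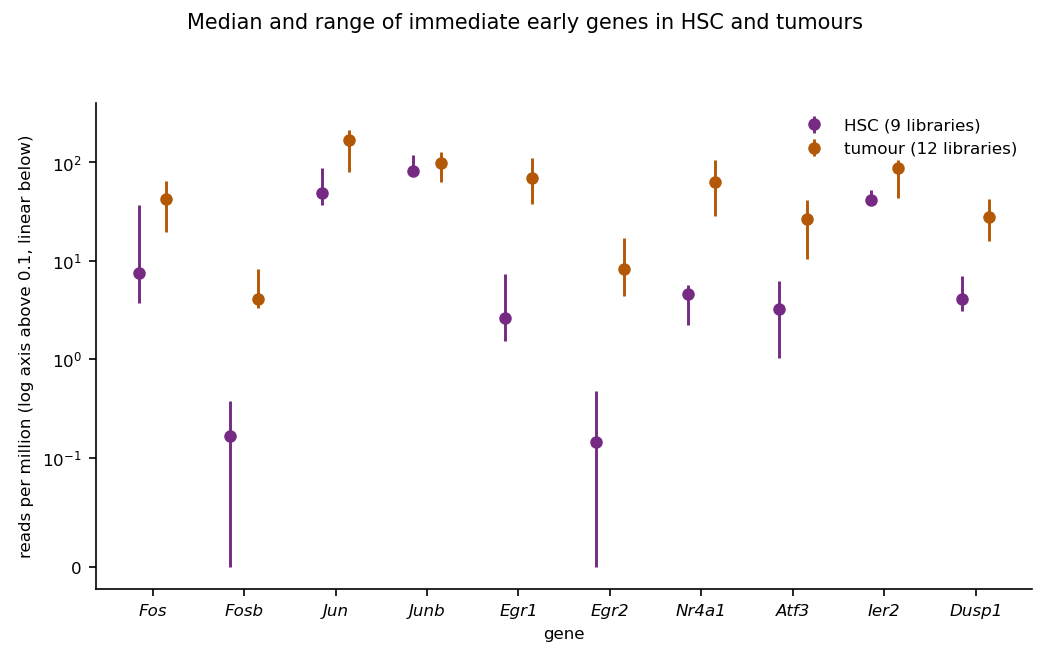
Points are medians and lines the lowest to highest library, in RPM, for 9 HSC and 12 tumour libraries; the vertical axis is logarithmic above 0.1 and linear below. The tumour range of Egr1 (37.4 to 110.9) lies wholly above its HSC range (1.53 to 7.31), and the ranges of Junb overlap.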

How the data were processed

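RNA sequencing of 9 HSC and 12 tumour libraries was read from 4 tables that the authors deposited. The authors had normalized read counts into a signal per gene before the files were deposited, with a single factor for all genes of a library. Multiplying back gave whole numbers, within 0.05 of a read, for 100% of the values in each column. The build was mm10, per the submitters' processing notes. The aligner, counter and scaling are not given in the sources used here, and the label descriptions name DEBrowser. The deposited tables also hold the authors' log2 fold change, fold as a ratio, p-value, adjusted p-value, its −log10 and a test score. Fold changes of the deposited sedentary and active HSC table were signed sedentary over active and were turned round.

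The members and all gene lists were chosen with earlier results of these data known. Named list genes are up to 5 per list past the threshold with the smallest p, or otherwise the 2 smallest of the other immediate early genes. limma 3.58.1 (R 4.3.3) was fitted to log2(value + 1) over all genes whose mean reached 1 in a group, with Benjamini-Hochberg adjustment over all genes tested and a threshold of 0.05. Fold changes on that scale understate low genes. Transplant against sedentary HSC and the 12-tumour fit used recovered reads scaled by the median of ratios. In tumours this scaling equalled the deposited one. edgeR 4.0.16 and DESeq2 1.42.0 on recovered reads, other scalings, filters and pseudocounts, and fits without 1 library were alternatives. The procedure was tested on simulated data in which 200 genes well above the detection limit changed by more than any member's main estimate. That test therefore does not speak to changes of the members' size or to genes with few reads. Reads carried no molecular identifiers, so the limits given for 0 reads cover counting error only. The p-values measure the spread between libraries within groups of 3, and limma draws each gene's variance toward that of the other genes. In the 12-tumour fit, used for the 2 contrasts between weeks and the change of the activity effect, the spread was pooled over all 4 tumour groups.

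Replicate numbers were checked by correlating deviations of same-numbered libraries from group means. All 3 exceeded 0.1 for transplant against active HSC (0.157 to 0.317) and for tumours of week 18 (0.174 to 0.186), and not in the other comparisons.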

Additional observations from a re-analysis of the deposited data

How the results depend on the processing

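For active against sedentary HSC, transplant against active HSC and the 5 tumour comparisons, no alternative called a member. For transplant against sedentary HSC the count of 1 member became 0 with a pseudocount of 0.1, 0 with the replicate block, 2 with edgeR (Atf3 and Egr1), 3 with DESeq2 (Atf3, Egr1 and Fos), 2 within replicates 1 and 2 (Egr1 and Fosb), and 0 to 1 in the fits without 1 library (Fosb without sedentary replicate 3, Nr4a1 without transplant replicate 1, Egr1 without transplant replicate 3). The calls over all genes moved too: 1268 of 13329 with that pseudocount, 95 of 13329 with the block and 1940 of 13236 within replicates 1 and 2. edgeR called 19.3% and DESeq2 24.1%. Without sedentary replicate 3, transplant replicate 1 or transplant replicate 3 they were 1470 of 13310, 480 of 13338 and 1674 of 13314. The block changed no other call of a member. The members' median moved to 0.45 with a filter at a mean of 10 in active against sedentary HSC, and to 0.39, 0.40 and 0.35 with limma, DESeq2 and edgeR on the other column of active replicate 2 (the last 2 chosen after seeing the data). In transplant against active HSC it moved to 0.42 within replicates 1 and 2, and to -0.22 and -0.23 with DESeq2 and edgeR on the other column. In transplant against sedentary HSC it moved to 0.28 with the filter, which leaves 8 members, to 0.35 with edgeR, to 1.11 within replicates 1 and 2, and lay between 0.30 and 0.92 without 1 library. For the change of the activity effect between weeks it lay between 0.094 and 0.655 without 1 library, lowest without sedentary replicate 1 of week 18. Nr4a1 in active against sedentary HSC turned to 0.050, 0.046 and 0.051 with limma, DESeq2 and edgeR on the other column and lay between -0.55 and 0.044 without 1 library, the last without active replicate 2. Fos in transplant against active HSC turned to -0.27, -0.53 and -0.52 with the same 3 tools on that column. The cause of these shifts was not tested, beyond the other column's own reads. Fosb and Egr2 rested on at most 27 and 14 reads per HSC library, also in the deepest ones. Only 3 libraries per group and the unresolved library bear on every HSC value.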
